A study of Mus musculus with 281 samples.

Results

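The SLC4 bicarbonate transporters were followed in single cells of the adult mouse stria vascularis, the epithelium of the lateral cochlear wall that makes the endocochlear potential and borders the endolymph. The members were taken by family name, as Slc4a2, Slc4a3, Slc4a4, Slc4a5, Slc4a7, Slc4a8, Slc4a10 and Slc4a11, and are 8 of the 47752 genes in the deposited table. Slc4a1 was not taken, as it is a red cell gene. Of the 8 members, 7 had a count in at least 1 cell, and Slc4a5 had none in any cell.

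Each profile is 1 cell, taken up with a glass micropipette from collagenase-treated tissue and sequenced over the whole transcript with Smart-Seq2. By their labels 40 cells came from Slc26a4+/- mice, 69 from Slc26a4-/- mice and all others from Slc26a4+/+ mice of strain 129S6, at postnatal days 22 to 44. Slc26a4 encodes pendrin, the anion exchanger that carries bicarbonate into endolymph, and Slc26a4-/- mice carry no intact copy of it in any tissue. No mouse was named for any cell. Cells are not replicates of a genotype, so each genotype counted as 1 sample, and no p-value or standard error is given. A profile held between 1848 and 7932729 estimated counts (median 1312950), with 20 cells under 100000. The run dates give 4 batches. All Slc26a4+/- cells were in batch 4, and the Slc26a4-/- cells were in batches 2 and 4 except 1 cell of batch 1, so genotype and batch are in part confounded.

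Cells were clustered without the SLC4 genes and named from marker lists. The intermediate cell (IMC)-like class held 71 Slc26a4+/+, 23 Slc26a4+/- and 39 Slc26a4-/- cells, all of which scored highest for the IMC list. IMCs are the pigmented cells of the stria. The spindle cell (SC)-like class held 33 cells (23, 2 and 8) and the root cell (RC)-like class 36 cells (16, 6 and 14). These 2 classes together are called pendrin cells below, since SCs and RCs are the cells of this tissue known to make pendrin. The marginal cell (MC)-like class, the layer that faces the endolymph, held 21 cells (14, 2 and 5). A cluster of 17 cells led by Crhbp and a cluster of 41 cells led by Slc4a1, Fcnb and Mpo matched none of the 4 lists and are not named.

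SLC4 proteins are membrane carriers for bicarbonate and related ions. Slc4a2 and Slc4a3 encode sodium-independent exchangers of chloride for bicarbonate (AE2 and AE3), which let bicarbonate out of a cell. Slc4a4, Slc4a5, Slc4a7, Slc4a8 and Slc4a10 encode sodium-coupled carriers, most of which bring bicarbonate in and raise the pH of the cytosol. Slc4a11 belongs to the family by sequence and conducts protons or hydroxide rather than bicarbonate. In the cochlea these carriers act beside the carbonic anhydrases, which interconvert carbon dioxide and bicarbonate, and beside pendrin.

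Slc4a2 (ENSMUSG00000028962, chr5:24423837-24440950, plus strand of GRCm38) and Slc4a8 (ENSMUSG00000023032, chr15:100761747-100823968, plus strand) had the highest mean levels per transcript length in any named class. Both means were those of IMC-like cells, and in the other named classes Slc4a3 or Slc4a11 stood above Slc4a8. Each of the pair was counted mainly on 2 transcripts that differ at the start of the coding sequence. The first coding bases of these transcripts are shown, as they tell apart the protein starts that the counts are divided between. Capitals mark the coding bases that the other transcript of the same gene lacks. The sequences are spliced coding sequence from GENCODE M21, so all but the last span an intron. The transcripts are called Slc4a2 long (ENSMUST00000080067, chr5:24427586-24429439), Slc4a2 short (ENSMUST00000115049, chr5:24428250-24429439), Slc4a8 long (ENSMUST00000023776, chr15:100761930-100783004) and Slc4a8 short (ENSMUST00000162049, chr15:100782975-100783004), each with the span of the bases shown.
Slc4a2 long: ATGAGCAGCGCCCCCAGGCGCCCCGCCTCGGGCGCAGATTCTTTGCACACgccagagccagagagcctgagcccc
Slc4a2 short: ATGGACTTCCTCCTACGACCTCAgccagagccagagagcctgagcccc
Slc4a8 long: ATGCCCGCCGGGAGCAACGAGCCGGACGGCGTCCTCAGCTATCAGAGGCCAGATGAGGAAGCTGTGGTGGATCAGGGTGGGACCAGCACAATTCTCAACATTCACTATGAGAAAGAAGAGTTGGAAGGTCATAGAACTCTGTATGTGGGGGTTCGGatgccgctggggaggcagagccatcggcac
Slc4a8 short: atgccgctggggaggcagagccatcggcac
The Slc4a2 transcripts share their last 3661 coding bases and start with 50 and 23 coding bases of their own. Slc4a8 short begins at an ATG inside Slc4a8 long and has no coding base of its own, and Slc4a8 long adds 52 codons before it.

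CPM is the share of a gene in the counts of a cell, scaled to a total of 1000000. In Slc26a4+/+ cells, 5 of the 8 members (Slc4a2, Slc4a3, Slc4a7, Slc4a8 and Slc4a11) had a mean of 10 CPM or more in at least 1 named class, against 23.8% of all genes in the table. By medians over cells only Slc4a2 did, in IMC-like and SC-like cells. Apart from Slc4a2 in those classes, the median cell was therefore under 10 CPM, and the means are set by the cells with many counts. Beside each mean stand the median, the highest cell and the share of cells with 10 counts or more. That share has an exact binomial 95% interval, which takes each cell as a separate draw. The interval covers no spread between mice or batches and compares no classes or genotypes.

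Slc4a2 was found in all 4 named classes and had its lowest mean in MC-like cells. IMC-like cells had a mean of 141.2 CPM (lowest 0, median 34.2, highest 928), and 39 of 71 cells had 10 counts or more (54.9%, 42.7 to 66.8%). SC-like cells had a mean of 183.2 CPM (median 40.3, highest 906), with 13 of 23 cells (56.5%, 34.5 to 76.8%). In these 2 classes most cells held the transcript at this level, and the ranges of the cells overlapped from end to end.

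The RC-like mean of Slc4a2 was 131.1 CPM and the median 2.30, with 6 of 16 cells at 10 counts or more (37.5%, 15.2 to 64.6%). A single RC-like cell of 947 CPM held 45.2% of the class sum. MC-like cells had a mean of 26.7 CPM (median 2.46, highest 137.6), with 5 of 14 cells (35.7%, 12.8 to 64.9%). The SC-like mean exceeded the IMC-like mean by 0.37 on the log2 scale (pseudocount 1 CPM), while IMC-like cells had the higher mean in 8 of the 12 collection sessions that held both. IMC-like cells were above MC-like cells in 7 of 7 such sessions. The MC-like class was not the lowest by every measure, as its median was above the RC-like one and its mean above that of SC-like cells in 3 of 5 sessions.

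The highest Slc4a2 levels of any cluster were those of the unnamed cells led by Crhbp. Their 11 Slc26a4+/+ cells had a mean of 582 CPM (lowest 0, median 393, highest 1526), and 10 of 11 had 10 counts or more (90.9%, 58.7 to 99.8%). The batch means of these cells were 411, 827 and 345 CPM in batches 2, 3 and 4. Other leading genes of the cluster were Slc26a7, Vmo1 and Col8a1.

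Slc4a3, the exchanger best known from excitable cells, lies at chr1:75546266-75562172 on the plus strand and was found in fewer cells. SC-like cells had the highest mean, 57.05 CPM, followed by the IMC-like (39.9 CPM), MC-like (33.7 CPM) and RC-like (18.5 CPM) classes, and the median was 0.88 CPM in MC-like cells and 0 elsewhere. The number of cells with 10 counts or more was 6 of 23, 13 of 71, 6 of 14 and 3 of 16 in that order. The widest interval of these shares was 17.7 to 71.1%, in MC-like cells. SC-like cells exceeded IMC-like cells by 0.50 (log2 of mean CPM), and in the 12 sessions with both classes each was higher in 5 with 2 ties.

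Slc4a8, a sodium-driven exchanger of chloride for bicarbonate (NDCBE), had its highest mean in IMC-like cells and was near absent from MC-like cells. The 71 IMC-like cells had a mean of 170.6 CPM (lowest 0, median 6.16, highest 1718), and 35 had 10 counts or more (49.3%, 37.2 to 61.4%). None of the 14 MC-like cells reached 10 counts (interval up to 23.2%), and the highest of them had 3.01 CPM. Counting cells thinned to 100000 counts, a count was kept in 33 of 68 IMC-like cells and in 2 of 14 from the MC-like class.

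By means, the pendrin cells lay between those classes for Slc4a8. SC-like cells had a mean of 32.4 CPM (median 0, highest 506), with 2 of 23 cells at 10 counts or more (8.70%, 1.07 to 28.04%). The RC-like mean was 111.2 CPM (median 0.40, highest 713), with 4 of 16 cells (25%, 7.27 to 52.4%). IMC-like cells were above RC-like cells by 0.61 on the log2 scale of means, under 2-fold, and had the higher mean in 6 of 10 sessions. Against SC-like cells they were higher in 9 of 12 sessions and against MC-like cells in 6 of 7. The pendrin cells were not set apart from MC-like cells by sessions, with the MC-like mean above the SC-like mean in 3 of 5 (1 tie) and RC-like and MC-like cells each higher in 2 of 4. At 1 count or more, 8 of 14 MC-like cells held Slc4a8. Batch means of Slc4a8 in IMC-like cells ran from 72.2 to 267.7 CPM, and session means from 0 to 559 CPM.

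**Figure D1:**
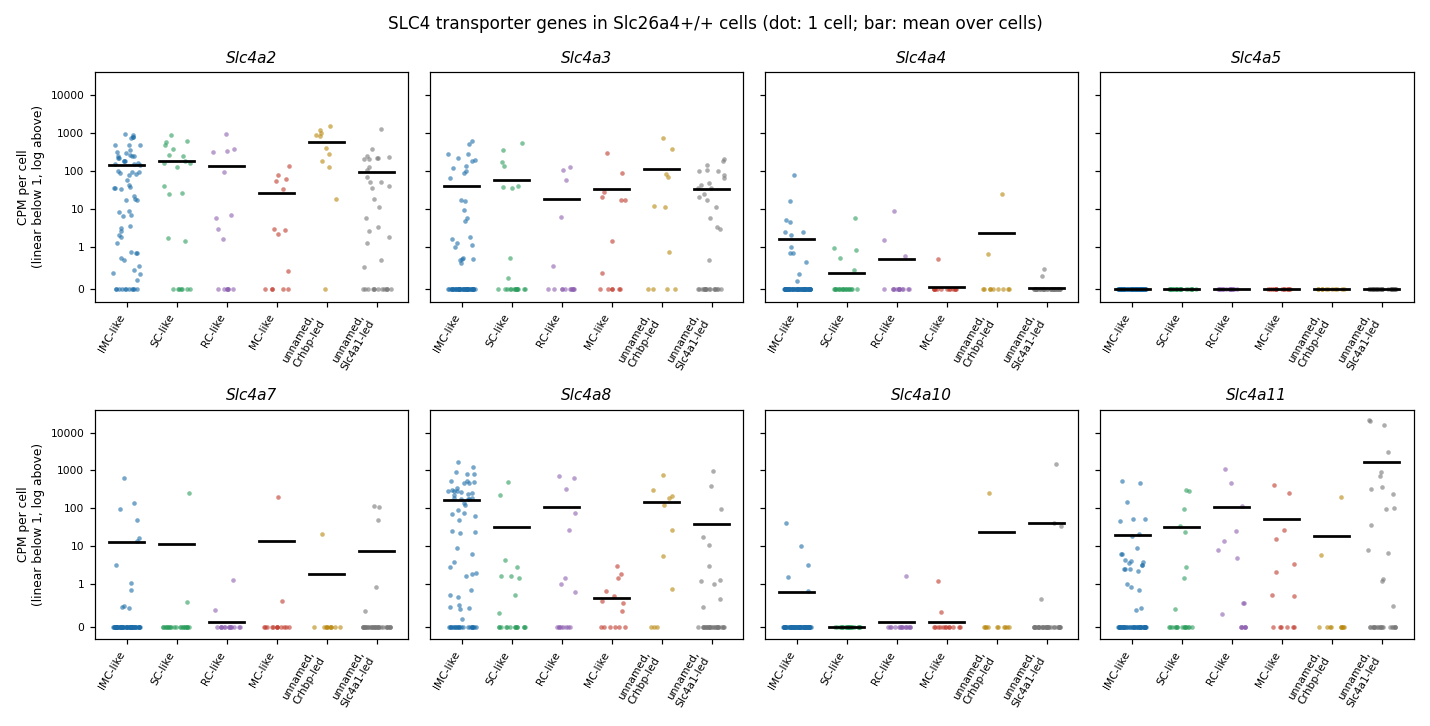
CPM of the 8 SLC4 members in each Slc26a4+/+ cell by cell group, on an axis that is linear below 1 CPM and logarithmic above; each point is 1 cell and the bars mark means. Slc4a2 and Slc4a8 rise above 100 CPM in many IMC-like cells, Slc4a8 stays at or under 3.01 CPM in MC-like cells, and most points of the other members lie at 0.

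Slc4a7, an electroneutral sodium-bicarbonate cotransporter (NBCn1; chr14:14702279-14799940, plus strand), was seen in few cells. Among IMC-like cells, 6 of 71 had 10 counts or more (8.45%, 3.17 to 17.5%), while the SC-like, RC-like and MC-like classes had 1 of 23, 0 of 16 and 1 of 14. Its means in that order, 13.3, 11.4, 0.10 and 14.2 CPM, rest on those cells, as the single highest cell held 65.9%, 99.8%, 76.3% and 99.7% of each sum. The highest was an IMC-like cell of 623 CPM.

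Slc4a4, the electrogenic sodium-bicarbonate cotransporter (NBCe1; chr5:88886818-89239653, plus strand), was near the floor throughout. Its means were 1.65 CPM in IMC-like cells and 0.71 CPM or less in the other named classes. In the whole data 3 cells had 10 counts or more, all Slc26a4+/+, with 5.17, 24.7 and 80.2 CPM. Slc4a5, a second electrogenic cotransporter (NBCe2; chr6:83219828-83304945, plus strand), had no count in any cell.

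Slc4a10, which encodes a sodium-coupled carrier (NCBE; chr2:62046462-62326730, plus strand), was at 10 counts or more in 5 cells of the whole data. Their levels were 41.1, 172.7, 260, 602 and 1466 CPM. They sat in 4 different groups, an IMC-like and an SC-like cell labelled Slc26a4-/-, a cell of the cluster led by Crhbp and a pair of cells of the cluster led by Slc4a1. Of the 5 cells, 4 also had Slc4a11 at 386 CPM or more, and the fifth, the cell of 260 CPM, had none. This overlap was noticed after the values were seen.

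Slc4a11 (chr2:130684113-130697519, minus strand) was the only member past 2-fold between the highest and the next named class, 1 of 5 members at a mean of 10 CPM, where 34.5% of the genes passed. Its RC-like mean was 108.3 CPM (median 0.55, highest 1100) and its MC-like mean 51.9 CPM (median 0.74, highest 420), a log2 difference of 1.05. SC-like cells had 32.8 CPM (highest 297.9) and IMC-like cells 19.4 CPM (highest 514). At 10 counts or more were 5 of 16, 4 of 14, 5 of 23 and 6 of 71 cells, in the same order. The RC-like mean came from batch 3, where 4 cells averaged 397 CPM against 3.16, 8.07 and 23.9 CPM in batches 1, 2 and 4, and without batch 3 the MC-like mean was the higher (log2 -1.95).

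The largest amounts of any member were Slc4a11 in 3 cells outside the named classes. These 3 Slc26a4+/+ cells, of the cluster led by Slc4a1, had 19968, 21530 and 15456 CPM (65035, 41437 and 23787 counts), and the highest of all other cells had 3030 CPM. They are the only 3 cells that scored highest for the fibrocyte list among 11 marker lists, a grouping made after the values were seen. Their Otos was 6299, 13742 and 1066 CPM, their Coch 4730, 2201 and 8607 CPM and their Dcn 1402, 956 and 2934 CPM, while Col1a2 was at 3.25 CPM or less and Col3a1, Cyp26b1 and Dlx5 were at 0. The list thus matched in 3 of its 7 genes, so the cells are given no cell type name.

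Among other acid-base genes, Car3 and Ahcyl2 were high in all 3 cells. Car3, a cytosolic carbonic anhydrase, was at 17251, 4655 and 21365 CPM, against class means of 42.6 to 915 CPM in named cells. Ahcyl2, whose product binds sodium-bicarbonate cotransporters, was at 13587, 4645 and 9587 CPM, against at most 207.004 CPM. Car2 was at 1151, 1020 and 5872 CPM, against class means of at most 763 CPM, that of IMC-like cells. The genes that follow were not above every class mean in all 3 cells. Car14 was at 1854, 1380 and 1.95 CPM against an IMC-like mean of 2436 CPM, Wnk1 at 318, 204.2 and 0.65 CPM against an RC-like mean of 431 CPM, and Atp6v1b2 at 0, 546 and 0.65 CPM. Slc4a2 was at 213.1, 0.52 and 243.7 CPM and Slc4a10 at 41.1, 1466 and 0.65 CPM, while Slc4a3, Slc4a4, Slc4a5 and Slc4a7 were at 0. Without these cells the mean Slc4a11 of the cluster fell from 1697 to 171.7 CPM and that of Slc4a10 from 41.7 to 1.04 CPM.

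In named cells, Slc4a11 and the fibrocyte list moved together in part. The 6 Slc26a4+/+ IMC-like cells with 10 counts or more of Slc4a11 had a median summed list level of 193.7 CPM, against 3.76 CPM in the other 65, with ranges of 2.28 to 794 and 0 to 1297 CPM. In both sets Cyp26b1 and Dlx5 were at 0. The part of such RNA in the Slc4a11 values was not tested.

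**Figure D2:**
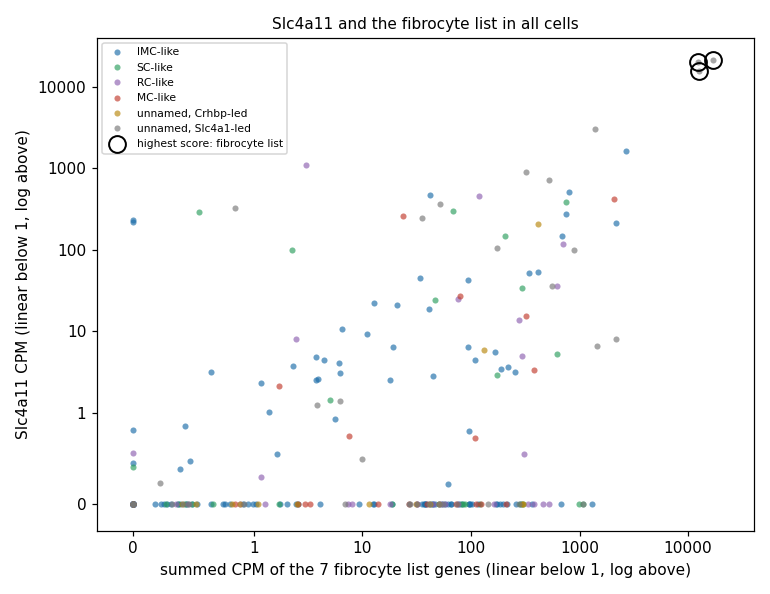
Slc4a11 CPM of each cell against its summed CPM of the 7 fibrocyte list genes, on axes that are linear below 1 CPM and logarithmic above; each point is 1 cell, coloured by cell group. The 3 circled cells of 15456 to 21530 CPM stand apart at the upper right, and many cells with a high list sum lie at 0 for Slc4a11.

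Levels of different genes were compared only per transcript length, as summed TPM in Slc26a4+/+ cells. In IMC-like cells Slc4a8 ranked first with a mean of 89.96 TPM, ahead of Slc4a2 with 74.1 and Slc4a3 with 42.2, and made up 40.8% of the TPM of all members. In SC-like cells Slc4a2 was first with 64.7 TPM (47.5%), followed by Slc4a3 with 43.5. RC-like cells had Slc4a2 first at 72.8 TPM, then Slc4a11 at 48.4 and Slc4a8 at 32.6. MC-like cells had the least, with Slc4a11 at 28.5, Slc4a3 at 23.1 and Slc4a2 at 12.1 TPM. The place of Slc4a3 rests largely on short transcripts that are not coding. A retained-intron transcript of 706 bases held 69.2% of its TPM in IMC-like and 46.6% in SC-like cells. The coding transcript of 7182 bases held 2.08% and 1.46%. In IMC-like cells retained introns also entered the top 2 places. One of 641 bases held 29.4% of the Slc4a8 TPM and one of 679 bases 11.5% of the Slc4a2 TPM. An order by coding transcripts alone was not computed. Neighbours in these orders do not differ beyond the spread of the cells, since the medians of the members named here were at most 33.7 TPM and every one of them had cells above that.

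Slc4a2 and Slc4a8 were found together in some cells and apart in others. Of the 71 Slc26a4+/+ IMC-like cells, 19 had 10 counts or more of both, 20 of Slc4a2 without Slc4a8 and 16 of Slc4a8 without Slc4a2. Of the 23 SC-like cells none had both, 13 had Slc4a2 alone and 2 Slc4a8 alone. Counting from 1 count, 40 of 71 IMC-like and 6 of 23 SC-like cells had both. Of the cells in the cluster led by Crhbp, 6 of 11 had both at 10 counts. The median IMC-like cell held 1 member at 10 counts or more, and 11 of 71 held none.

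The transcripts behind these counts differed between members. Slc4a2 long took 66.4%, 69.7%, 85.8% and 65.8% of the Slc4a2 counts (IMC-like, SC-like, RC-like, MC-like), and Slc4a2 short took 25.7%, 27.6%, 7.07% and 27.4%. Averaged cell by cell, the pair was even in IMC-like cells, with 41.8% for Slc4a2 long and 43.4% for Slc4a2 short. Slc4a2 long held the majority of the gene's counts in 20 and Slc4a2 short in 14 of 39 cells. A majority does not mean sole use. Slc4a2 long reached 10 counts in 21 and Slc4a2 short in 26 of these cells, so some held both. For Slc4a8, Slc4a8 short took 64.8%, 57.4% and 59.7% of the counts (IMC-like, SC-like, RC-like), and Slc4a8 long took 29.7%, 37.9% and 38.7%. Slc4a8 long has 11790 bases and Slc4a8 short 3532, so counts favour the long one. By TPM, Slc4a8 short took 52.9%, 51.1% and 69.6% and Slc4a8 long 6.15%, 12.2% and 15.8%. Much of the other TPM lay on short transcripts not annotated as coding. One of 641 bases held 29.4% in IMC-like cells and one of 790 bases 33.1% in SC-like cells. These are shares of whole transcripts and do not by themselves measure the protein starts.

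Most Slc4a3 counts fell on transcripts that are not annotated as coding. Over named cells, 45.9% lay on transcripts marked for nonsense-mediated decay, 39.7% on retained introns and 14.4% on coding transcripts. In IMC-like cells a single retained-intron transcript took 52.8%. By contrast 95.5% of Slc4a2, 97.2% of Slc4a8 and 82.3% of Slc4a11 counts were on coding transcripts. For Slc4a7 a single transcript of the 25 in GENCODE M21 was quantified, so its counts may miss others.

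**Figure D3:**
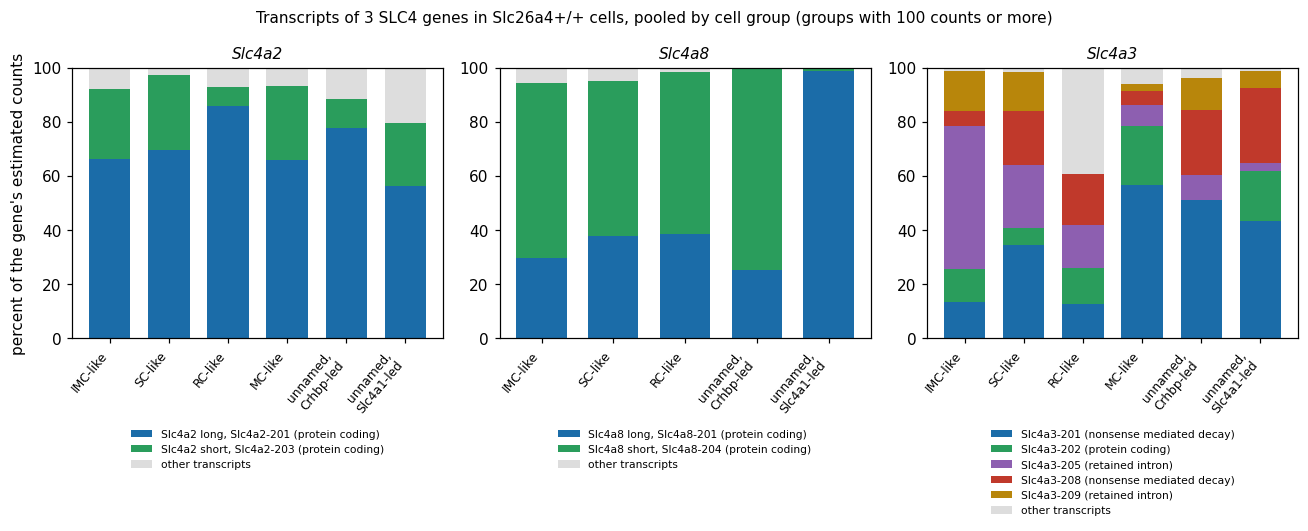
Share of each transcript in the pooled estimated counts of Slc4a2, Slc4a8 and Slc4a3 in Slc26a4+/+ cells (percent, stacked bars from 0 to 100), for cell groups with 100 counts or more. Slc4a2 long and Slc4a8 short take the largest share in every named class shown, while the Slc4a3 bars are divided among many transcripts, and in RC-like cells a transcript drawn under the others held 36.1% of few counts.

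The targeted gene was looked at first in the comparison of genotypes. Slc26a4 averaged 969 CPM in the 39 Slc26a4+/+ pendrin cells, 554 CPM in the 8 labelled Slc26a4+/- and 793 CPM in the 22 labelled Slc26a4-/-. In batch 2 it was 1749 CPM in 3 Slc26a4+/+ cells against 277.8 CPM in 15 cells labelled Slc26a4-/-, and in batch 4 it was 1214 CPM in 8 against 1898 CPM in 7. The RNA level of Slc26a4 did not separate the genotypes, so the directions below rest on the labels alone.

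In IMC-like cells labelled Slc26a4-/-, Slc4a8 was the member whose share of cells at 10 counts or more differed most. The 39 cells had a mean of 444 CPM (lowest 0, median 263.5, highest 2455), against 170.6 CPM (median 6.16, highest 1718) in the 71 Slc26a4+/+ cells, a log2 ratio of 1.37. At 10 counts or more were 33 of 39 cells (84.6%, 69.5 to 94.1%) against 35 of 71 (49.3%, 37.2 to 61.4%). These intervals take each cell as a separate draw and do not compare the genotypes, each of which is 1 sample. At 100000 counts per cell, 32 of 39 and 33 of 68 cells kept a count. The ranges of the cells overlap, since both groups hold cells at 0 and cells at 1718 CPM or more.

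The direction for Slc4a8 was the same in both batches that held both genotypes. In batch 2 the mean was 551 CPM in 27 cells labelled Slc26a4-/- and 267.7 CPM in 12 Slc26a4+/+ cells (log2 1.04), with 22 of 27 and 6 of 12 cells at 10 counts or more. In batch 4 it was 202.7 CPM in 12 and 72.2 CPM in 7 cells (log2 1.48), with 11 of 12 and 3 of 7 cells. Shares at 10 counts depend on depth. The median depth of the cells labelled Slc26a4-/- was the lower in batch 2 (655962 against 1310246.5 counts) and the higher in batch 4 (3940873.5 against 1831846 counts). On the 5 days when IMC-like cells of both genotypes were collected, the mean was higher in the cells labelled Slc26a4-/- on 4. The 9 Slc26a4-/- sessions had means of 46.7 to 705 CPM and the 21 Slc26a4+/+ sessions of 0 to 559 CPM, so the sessions overlap.

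The size of the Slc4a8 difference depended on which cells of both labels were kept. Without batch 2, which leaves only the 12 cells of batch 4 under the Slc26a4-/- label, the log2 ratio was 0.42. It was 1.84 and 0.55 in each of the 2 IMC-like clusters alone. The IMC marker sum also differed, with a median of 84700 CPM in Slc26a4-/- cells against 60919 CPM in Slc26a4+/+ cells (80267 against 63595 in batch 2, 108010 against 65795 in batch 4), and none of its 11 markers was at 0 throughout. The lists of other cells moved too. The MC list sum had a median of 232.4 CPM (8.77 to 1088) in Slc26a4-/- cells against 708 CPM (18.4 to 5164), with each of its 10 markers found in both, and the basal cell list 43.3 against 103.7 CPM. The part of these lists in the Slc4a8 difference was not tested.

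Slc4a2 in IMC-like cells averaged 196.2 CPM (median 106.003, highest 1017) in cells labelled Slc26a4-/- against 141.2 CPM (median 34.2) in Slc26a4+/+ cells, a log2 ratio of 0.47. The ratio was 0.33 in batch 2 (190.1 against 151.2 CPM) and 1.28 in batch 4 (209.8 against 85.7 CPM), and the mean was higher on 3 of the 5 shared days. The mean of the day means ran the other way, at 99.4 CPM in cells labelled Slc26a4-/- against 235.9 CPM, where a single Slc26a4+/+ cell of 884 CPM stood for 1 day. Cells with 10 counts or more were 26 of 39 (66.7%, 49.8 to 80.9%) against 39 of 71 (54.9%, 42.7 to 66.8%). Both Slc4a2 and Slc4a8 reached 10 counts in 24 of 39 cells labelled Slc26a4-/- and in 19 of 71 Slc26a4+/+ cells.

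In IMC-like cells labelled Slc26a4-/-, 2 of the 5 members at a mean of 10 CPM were 2-fold higher and none was 2-fold lower, where 10.9% of all genes were higher and 17.3% lower by 2-fold. Within batch 2 the count was 2 higher and 1 lower of 5 (27.2% and 24.5% of genes) and within batch 4 it was 4 higher and 1 lower of 5 (24.7% and 21.2%). Over all batches the median log2 ratio of the 5 members was 0.47 and that of all genes -0.14. The other member was Slc4a11, at 63.1 against 19.4 CPM (log2 1.65), and it rests on 1 cell of 1651 CPM whose Coch was 2194 CPM and Otos 471 CPM. Slc4a11 in batch 4 was 0.018 against 0 CPM. Slc4a3 (40.5 against 39.9 CPM) and Slc4a7 (16.01 against 13.3 CPM) were close in the means over all batches. On the 5 shared days the means of day means were further apart, at 85.1 against 25.7 CPM for Slc4a3 and 23.6 against 50.7 CPM for Slc4a7.

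**Figure D4:**
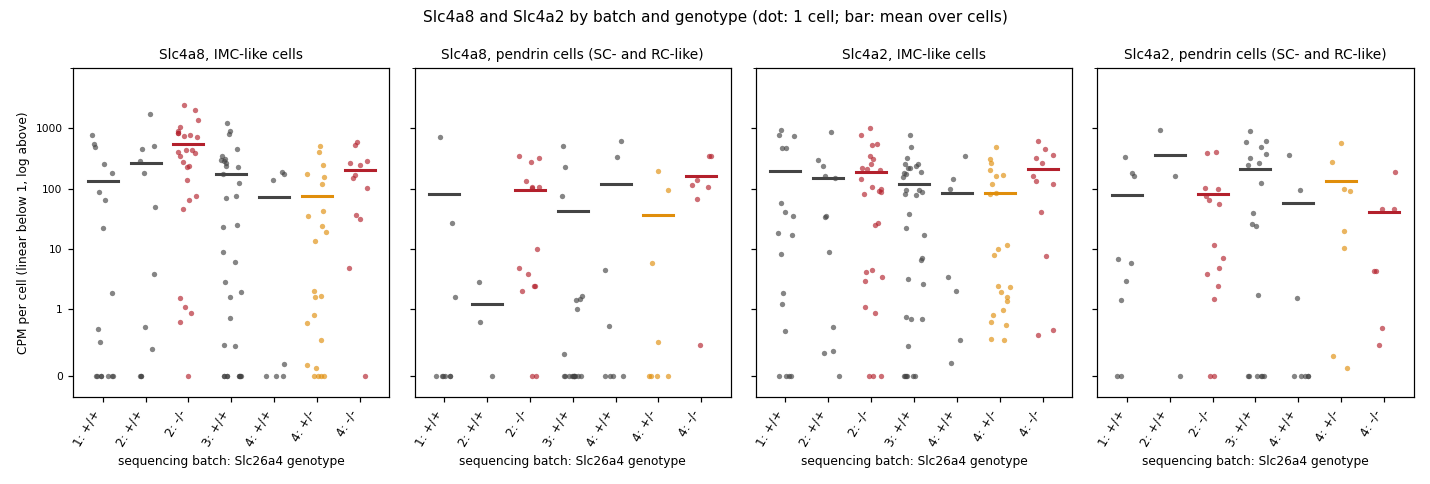
CPM of Slc4a8 and Slc4a2 in IMC-like cells and pendrin cells by batch and Slc26a4 genotype, on an axis that is linear below 1 CPM and logarithmic above; each point is 1 cell and the bars mark means. In IMC-like cells Slc4a8 is higher in cells labelled Slc26a4-/- than in Slc26a4+/+ cells in batch 2 (551 against 267.7 CPM) and in batch 4 (202.7 against 72.2 CPM), with overlapping points.

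In pendrin cells Slc4a8 also had a higher mean and Slc4a2 a lower mean under the Slc26a4-/- label. Slc4a8 averaged 116.9 CPM (median 106.2, highest 354) in 22 cells against 64.7 CPM (median 0, highest 713) in 39 Slc26a4+/+ cells, a log2 ratio of 0.84. Cells with 10 counts or more were 13 of 22 (59.1%, 36.4 to 79.3%) against 6 of 39 (15.4%, 5.86 to 30.5%), and in batch 4 they were 6 of 7 against 2 of 8. In batch 2 the Slc26a4+/+ group was 3 cells. In RC-like cells alone the counts were 10 of 14 against 4 of 16.

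The make-up of the pendrin cells also moved with the label, from 23 SC-like and 16 RC-like cells in Slc26a4+/+ to 8 and 14. In the SC-like cells the SC list sum had a median of 13573 CPM (6332 to 23242) in cells labelled Slc26a4-/- against 31585 CPM (6314 to 108800) in Slc26a4+/+ cells, with each of its 9 markers found in both. The MC list sum was 10499 against 4012 CPM. The endothelial or pericyte list was at 60.5 against 1266 CPM, with 3 and 2 of its 8 markers at 0 throughout. That list includes Rgs5, a leading gene of the SC-like cluster that the study reports as lower in SCs of Slc26a4-/- mice. Its sum therefore does not stand for vascular cells alone. The part of these shifts in the values of pendrin cells was not tested.

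Slc4a2 in pendrin cells averaged 68.9 CPM (median 9.52, highest 404) in cells labelled Slc26a4-/- against 161.8 CPM (median 6.87, highest 947) in Slc26a4+/+ cells, a log2 ratio of -1.22. The mean and the median thus ran in opposite directions. The log2 ratio was -2.17 in batch 2 and -0.47 in batch 4, with 41.8 against 58.3 CPM in the latter. There were 13 of 22 against 19 of 39 cells at 10 counts or more, so the share was not lower.

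Of the 5 members at a mean of 10 CPM in pendrin cells, 1 was 2-fold higher and 2 were 2-fold lower, where 15.5% of genes were higher and 22.2% lower. Within batch 2 it was 3 higher and 2 lower of 5 (55.8% and 22.7% of genes) and within batch 4 it was 1 and 1 of 5 (28.5% and 28.4%). Over all batches the median log2 ratio of the 5 was 0.72 and that of all genes -0.13. Slc4a11 was lower at 19.5 against 63.8 CPM (log2 -1.66), with 2 of 22 against 10 of 39 cells at 10 counts or more. Slc4a10 was higher at 27.5 against 0.042 CPM, through 1 SC-like cell of 602 CPM. SC-like cells labelled Slc26a4-/- were all of batch 2, where the wild type had 2.

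The cells labelled Slc26a4+/- can be compared within batch 4. IMC-like Slc4a8 was 76.9 CPM in 23 Slc26a4+/- cells against 170.6 CPM over all Slc26a4+/+ cells (log2 -1.14), but against the 72.2 CPM of the 7 Slc26a4+/+ cells of the same batch the log2 ratio was 0.09. Cells with 10 counts or more were 11 of 23 (47.8%, 26.8 to 69.4%). Slc4a2 was 84.9 against 85.7 CPM within batch 4. Within the batch 3 of 6 members were 2-fold higher and 1 lower in IMC-like cells (24.3% and 19.8% of genes), with a median log2 ratio of 1.43. Over all batches none of 5 members was higher and 1 lower by 2-fold, where 20.9% of genes were lower, and in pendrin cells 1 of 4, Slc4a11 at 18.7 against 63.8 CPM, where 27.8% were.

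The genes that work beside the SLC4 carriers were counted in the same way between classes, where 34.5% of all genes were 2-fold above the next class. Of the 16 carbonic anhydrases 8 had a mean of 10 CPM in a named class and 5 of these were 2-fold above the next class, with a median log2 difference of 1.65 against 0.50 for the members and 0.65 for all genes. Car14, a membrane-bound enzyme, was at 2436 CPM in IMC-like cells against 370 in MC-like cells. Cytosolic Car2 was at 763 CPM in IMC-like cells against 163.2 in RC-like cells. Car8, a relative without catalytic activity, was at 87.5 CPM in IMC-like cells and Car3 at 915 CPM in SC-like cells.

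Of the 16 regulators and partners of SLC4 carriers 12 were at that level and 4 passed 2-fold, with a median log2 difference of 0.63, near that of all genes. The inositol trisphosphate receptor Itpr2 was at 1175 CPM in MC-like cells against 102.02 in SC-like cells. The kinases Wnk4 (372 CPM in IMC-like cells) and Wnk1 (431 CPM in RC-like cells) and Oxsr1 (27.8 CPM in SC-like cells) were the others. Of 25 other acid-base transporters 14 were at that level and 8 passed (median 1.75), among them the proton channel Hvcn1 at 208.9 CPM in IMC-like cells against 13.1 in RC-like cells.

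Under the Slc26a4-/- label, these lists had changes in both directions in IMC-like cells, with 2 carbonic anhydrases higher and 2 lower of 8, 1 regulator higher and 4 lower of 12, and 3 transporters higher and 3 lower of 9, beside 10.9% and 17.3% of all genes. The counts changed within batches. In batch 2 they were 1 and 2 of 7, 5 and 3 of 11 and 3 and 1 of 6, and in batch 4 they were 3 and 1 of 9, 3 and 4 of 11 and 6 and 1 of 8. Car8 was at 215.4 against 87.5 CPM, Car13 at 146.5 against 68.6 CPM and Car12 at 11.1 against 108.4 CPM. Slc9a3r2, a scaffold protein of membrane transporters, was at 2.75 against 46.6 CPM. Atp6v1b2, a subunit of the proton pump, was at 306 against 97.8 CPM, and the lactate carrier Slc16a3 at 2.18 against 34.2 CPM. These are means over all batches, and none was tested. Slc26a4+/- IMC-like cells, all of batch 4, were also under the Slc26a4+/+ mean for Slc9a3r2 (0.091 CPM) and Car12 (43.9 CPM).

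Over the Slc26a4+/+ cells of the 4 named classes, the genes whose levels followed a member most closely were described by Pearson's r of log2(CPM + 1). The highest were Igsf11 (0.47), Apc2 (0.44) and Ptprm (0.44) for Slc4a8, Ccser2 (0.42), Phb2 (0.41) and Supt6 (0.40) for Slc4a2, Zscan20, Tap1 and Chadl (0.38 to 0.37) for Slc4a3, and Apod (0.38), Gm525 (0.37) and Otos (0.33) for Slc4a11. The cells share libraries and batches and many values are 0, so these values rank genes and are no finding.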

How the data were processed

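Per the labels and the methods of the study, single cells were lysed one by one, cDNA was made with Smart-Seq2 and libraries with Nextera XT. Reads were quantified by the authors on mouse transcripts with kallisto (GRCm38/mm10, version and annotation release not given in the sources used here), and estimated counts and TPM were deposited for 98492 transcripts per cell, with a table of estimated counts for 47752 genes. For all members and cells that table equalled the sum of transcript counts after each was cut to a whole number. Of its 298 columns, 17 are not those of a sample analysed here and were not used.

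CPM is the gene count over the total of the cell. TPM was summed per gene through GENCODE M21, which lacked 1288 transcripts (median 0.635% of a cell's counts). Genotypes came from the labels (172, 40 and 69 of 281 cells), and batches and collection sessions (36, by day and age) from the run date and day that each profile carries. Cells were clustered in Seurat 5.3.0 (R 4.3.3) from 1979 variable genes, after SLC4 and pathway genes were left out of 2000, with 10 principal components at a resolution of 0.8. A cluster took the name of a marker list when that list scored highest in 80% or more of the cells, with 3 of its markers found. Cells were picked singly, so no doublet caller was run, and none was filtered in the values given. Ratios used mean CPM + 1, for genes with a mean of 10 CPM in a group compared, and 2-fold was called. No mouse was named, so no test was run. On simulated counts the ratio step recovered the changes it was given. The simulation held large changes, no spread between cells beyond sampling and no batches. It checks the arithmetic alone and says nothing on how firm the ratios above are. Python 3.11.15, numpy 2.4.6, pandas 2.3.3, scipy 1.17.1 and matplotlib 3.10.9 were used.

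All 8 members are described. Pathway genes named are those with the largest ratios, at most 4 a list and comparison, and likeness names 3 genes for each member with a count in 25% of cells. The members, lists and settings were chosen with earlier results of these data known, and the IMC, SC, RC and MC lists come in part from genes that the study names on these cells. Intervals take cells as separate draws and, like the totals, cover no spread between mice or batches, and reads carry no molecular identifiers.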

Additional observations from a re-analysis of the deposited data

Results flagged for a closer look

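The batch ratios of Slc4a2 under the Slc26a4-/- label lay above 0 in one cell group and below 0 in the other. In IMC-like cells the log2 ratio of Slc26a4-/- to Slc26a4+/+ means was 0.33 within batch 2 and 1.28 within batch 4, and in pendrin cells it was -2.17 within batch 2 and -0.47 within batch 4. The difference between the groups was not tested, since no mouse is named, and the wild-type pendrin cells of batch 2 are 3. Other measures did not follow these directions. On the 5 days of batch 2 with IMC-like cells of both genotypes the mean of day means was 99.4 CPM in cells labelled Slc26a4-/- against 235.9 CPM, and on the 1 such day for pendrin cells it was 102.9 against 0 CPM (1 cell each). The median of Slc4a2 in pendrin cells was 9.52 against 6.87 CPM.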

How the results depend on the processing

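No paired analysis was possible because no test was run and the labels pair no samples, and cells collected on the same day are set side by side by their means alone. The log2 ratio of Slc4a8 in IMC-like cells labelled Slc26a4-/- (1.37) stayed above 0 under every alternative. It was 1.03 by TPM, 0.42 without batch 2, 1.04 within batch 2, and, among alternatives chosen after seeing the data, 1.84 and 0.55 in each IMC-like cluster alone and 0.69 on days with both genotypes. Directions turned for Slc4a11 in those cells (1.65), at -0.058 with types by highest marker score, -4.48 without batch 2 and -2.39 in the first IMC-like cluster alone. They turned for Slc4a10 in pendrin cells (4.77), at -0.30 by marker score and -0.065 without batch 2, for Slc4a11 in RC-like over MC-like cells (1.05), at -1.95 without batch 3, and for Slc4a2 in pendrin cells (-1.22), at 6.70 on the single day with both genotypes (1 cell each). On such days the means of Slc4a2 in IMC-like cells (ratio 0.47) also turned, to 99.4 against 235.9 CPM. The ratio of Slc4a8 in Slc26a4+/- IMC-like cells (-1.14), which has no spread between batches to set it against, turned to 0.089 within batch 4. It was -1.16 at a resolution of 1.2 and with filtered cells, -0.90 by marker score, -1.53 by TPM, -1.11 with sessions weighted equally, -1.23, -0.96 and -1.11 without batch 1, 2 or 3, -1.15 and -1.06 with pseudocounts of 0.1 and 10 CPM, -0.96 with size factors, -1.37 without the highest cell of each group and -0.70 and -7.41 in each IMC-like cluster alone.

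The count of members past 2-fold moved as follows. Between classes (1) it was 2 by marker score and without batch 4, and 0 without batch 2, with a pseudocount of 10 CPM and with median-ratio size factors. For Slc26a4-/- IMC-like cells (2) it was 1 by marker score, 4 without the filter on low values and 5 within batch 4. For Slc26a4+/- IMC-like cells (1) it was 4 by TPM and within batch 4, 3 with sessions weighted equally and without the highest cell of each group, 2 without batch 2, 0 with size factors and 5 in the second IMC-like cluster alone. For Slc26a4-/- pendrin cells (3) it was 1 by TPM and 5 without and within batch 2. For Slc26a4+/- pendrin cells (1) it was 3 at a resolution of 0.4 and within batch 4, and 2 by marker score, with sessions weighted equally, without batch 3, without the filter and without the highest cell. The count at a mean of 10 CPM (5) was 1 by medians. The causes were not tested. Size factors moved the log2 level of all genes by -0.14 and -0.18 in Slc26a4-/- and Slc26a4+/- IMC-like cells. At a resolution of 0.4 the SC-like cells joined the cells led by Crhbp and were not named. Other counts (79) and the other ratios of Slc4a8 in Slc26a4-/- IMC-like cells (16) kept within 1.5 times or the spread between batches. Depth limits members with few counts, and with 2 to 8 wild-type cells in a batch a ratio rests on single cells.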

Other observations

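The 37 Slc26a4+/+ cells of the cluster led by Slc4a1 were a mixture by marker score, with 14 highest for the IMC list, 9 for red cells, 3 each for RC, fibrocyte and macrophage genes, 2 for granulocytes and 1 each for MC, basal cell and hair cell genes. Slc4a2 averaged 150 CPM in the 14 cells (median 4.30, highest 1303), 37.6 CPM in the 9 (median 0) and 0.65 CPM in the 3 macrophage-scoring cells. Slc4a11 averaged 309 CPM in the 14 cells (median 0, highest 3030). Slc4a7 reached 116.6 CPM in 1 of the 9 red cell-scoring cells. In the cell scoring highest for basal cell genes Slc4a11 was at 899 CPM. The cluster had 14 cells under 100000 counts, and the lowest held 10134, at which 1 count is far above most of the levels given for named cells.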
